A study of Homo sapiens with 8 samples.

Results

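The genes of matrix metalloproteinases (MMPs), ADAMs, ADAMTSs and their tissue inhibitors (TIMPs) were followed across 8 RNA-seq libraries of MDA-MB-231, an established human breast cancer cell line that makes little of the arginine-producing enzyme ASS1. Members were all genes named MMP, ADAM, ADAMTS or TIMP with a number, without a suffix, that held at least 10 counts in 2 or more libraries. Of 67 such symbols in a table of 23393 genes, 46 were members, namely 10 secreted MMPs, 6 membrane-type MMPs, 12 ADAMs, 14 ADAMTSs and all 4 TIMPs. In 28 members the minimum was reached in all 8 libraries, and in the other 18 it was reached in 2 to 7.

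The 4 groups held 2 libraries each. Parental cells were grown in DMEM with serum (parental control) or given arginine deiminase (ADI), an enzyme that degrades arginine, at 0.3 µg/mL for 48 h (parental ADI). The same was done with ρ0 cells, labelled p0#27, which derive from MDA-MB-231 and were depleted of mitochondrial DNA (ρ0 control and ρ0 ADI). The study's text describes the starvation as growth in medium lacking arginine, so it and the labels differ on how arginine was removed. The ρ0 line is a single clone, received as a gift and kept with pyruvate, uridine and ethidium bromide, which are not listed for the parental line; loss of mitochondrial DNA, clonal history and these additives cannot be told apart in any comparison of the lines. No label says that the 2 libraries of a group came from separate cultures, so p-values measure the spread between these libraries, which may be technical.

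MMPs are zinc-dependent proteinases that are made with an inhibitory prodomain and cut matrix proteins once it is removed. Secreted MMPs are released from the cell, whereas membrane-type MMPs stay on its surface and can activate secreted ones. ADAMs are mostly transmembrane sheddases that release growth factors, receptors and adhesion molecules, and ADAMTSs are secreted relatives that bind and cut proteoglycans, procollagens and other matrix proteins. TIMPs bind the active site of MMPs and, in the case of TIMP3, also of several ADAMs and ADAMTSs. Invasive breast cancer lines such as MDA-MB-231 are widely used to study these proteinases.

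What the proteinase families share at their active site is a run of 11 residues that holds the zinc, written as His-Glu-X-X-His-X-X-X-X-X-His. In the longest coding sequence of each gene in GENCODE v29 (GRCh38), 39 of the 42 proteinase members encoded it. It was absent from ADAM11, ADAM22 and ADAM23, members of the ADAM branch without proteinase activity. The residue at the eighth place was glycine in all 16 MMPs, in 9 ADAMs and in 10 ADAMTSs, asparagine in ADAMTS1, ADAMTS9 and ADAMTS15, and serine in ADAMTS8. The 33 bases that encode the run are shown for 6 members on which the results below turn, 5′ to 3′ on the coding strand, with the codons of the 3 histidines, the glutamate and the eighth residue in capitals.
MMP1: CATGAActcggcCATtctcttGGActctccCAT
MMP3: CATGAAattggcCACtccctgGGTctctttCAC
MMP14: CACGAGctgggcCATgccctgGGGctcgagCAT
ADAM8: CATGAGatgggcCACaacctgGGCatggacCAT
ADAMTS1: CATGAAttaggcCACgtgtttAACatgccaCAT
ADAMTS15: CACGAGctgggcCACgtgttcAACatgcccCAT
These lie at chr11:102795549-102795581 (minus strand, MMP1), chr11:102840535-102840567 (minus strand, MMP3), chr14:22843283-22843315 (plus strand, MMP14) and chr10:133271880-133271912 (minus strand, ADAM8), each within 1 coding exon. Those of ADAMTS1 (chr21:26841143-26841867, minus strand) and ADAMTS15 (chr11:130461612-130462109, plus strand) are interrupted by an intron. ADAMTS1 and ADAMTS15, which share the asparagine form and both cut proteoglycans, were the leading ADAMTS genes of the parental and the ρ0 line, respectively.

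Libraries held 25259503 to 31022155 counts. Between the 2 ρ0 control libraries the biological coefficient of variation was 25.1%, and within the other groups it was 1.84% to 5.16%, so results that rest on them are given without each of them where that ends a call or moves a value by more than 1.5-fold. All 6 markers of the line's mesenchymal state (VIM, CD44, AXL, CAV1, ANXA1 and MSN) were present in every group, with a summed level of 4876 to 4950 CPM in parental control, 2544 to 2552 in parental ADI, 8237 to 9194 in ρ0 control and 6449 to 6602 in ρ0 ADI. CPM are read counts scaled to a common library size after TMM adjustment. The summed level of 6 markers that this line should hold at low levels (ESR1, PGR, ERBB3, EPCAM, CDH1 and GATA3) was 28.1 to 28.5, 6.77 to 7.41, 58 to 59.4 and 32.7 to 36.8 CPM in the same order. Among them the epithelial genes EPCAM, with 14 and 15 counts in parental control and 684 and 697 in ρ0 control, and CDH1, with 2 and 0 against 457 and 440, were higher in ρ0 cells. ERBB3 went the other way, with 770 and 668 counts in parental control, 50 and 49 in parental ADI, 110 and 128 in ρ0 control, and 51 and 39 in ρ0 ADI. These levels moved with the line, as the members did, and their part in the results on the members was not tested. The summed level of the leukocyte list was 100, 51.8 to 54.5, 110 to 125 and 91.6 to 96 CPM, nearly all of it CD68, which had 3332 and 2861 counts in parental control, 1368 and 1447 in parental ADI, 3517 and 3319 in ρ0 control, and 2806 and 2172 in ρ0 ADI. CD14 had 4 to 11 counts in the parental libraries and 30 to 92 in the ρ0 libraries, PTPRC at most 13 in any, and CD3E 0 in all. The summed level of the fibroblast list was 19.2 to 21.7, 11.3 to 11.9, 15.6 to 36.7 and 9.83 to 12.2 CPM. Within it LUM had 0 to 2 counts in the parental and 44 to 160 in the ρ0 libraries, and COL1A2 had 97 and 3 in ρ0 control. The endothelial list (PECAM1, CDH5, VWF and KDR) summed to 13.8 to 14.8, 16.9 to 18.5, 9 to 9.44 and 20.9 CPM. After ADI in parental cells mean KDR went from 9.01 to 17.6 CPM, whereas PECAM1, CDH5 and VWF went from 1.01, 1.98 and 2.33 to 0.0573, 0.0552 and 0.0375 CPM. The part of these lists in the results was not tested. In such bulk RNA, fewer cells that express a gene and less of its RNA per cell cannot be told apart.

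Both the line and ADI went with changes across all families, with large differences between the lines in MMP1, MMP3 and MMP10, which were abundant or present in parental cells and far lower in ρ0 cells, and in the TIMPs, which were all higher in ρ0 cells. Of these genes MMP3, MMP10 and TIMP4 were members only through the line where they were high, so their differences were favoured by the rule. Differences were tested by the quasi-likelihood method of edgeR over the 15262 genes left by its filter on low counts, which included all 46 members. To be called higher or lower, a gene needed a change of more than 1 on the log2 scale with p, after Benjamini-Hochberg adjustment over these genes, under 0.05. After ADI, 9 members were called higher and 18 lower in parental cells, against 12.7% higher and 22.1% lower of all tested genes. In ρ0 cells, 4 were called higher and 4 lower after ADI, against 4.22% and 8.19% of all genes. Between the lines in control medium, 14 members were called higher and 17 lower in ρ0 cells, where 13.6% and 17.3% of all genes were. After ADI, 17 were higher and 14 lower in ρ0 cells, where 18.7% and 16.8% of all genes were. The 2 ADI comparisons do not share libraries with each other, but each shares its libraries with comparisons of the lines.

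**Figure D1:**
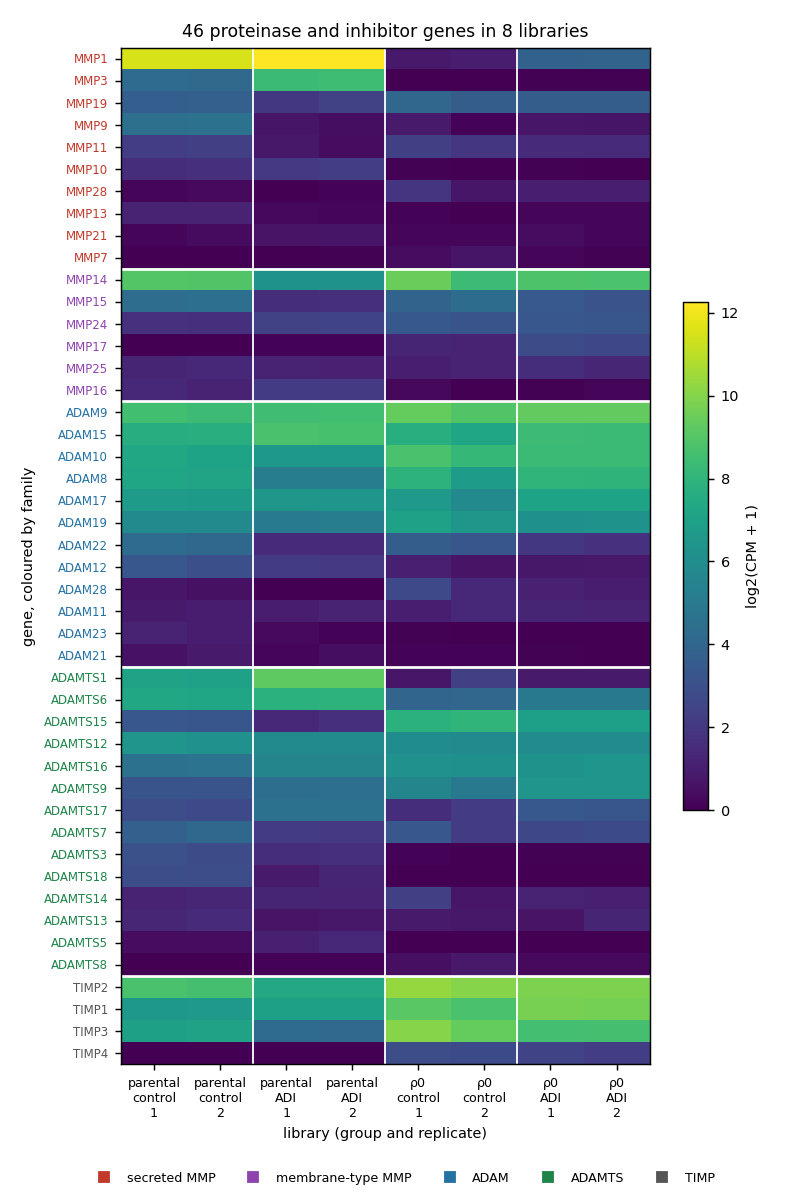
Level of each of the 46 members (rows, grouped and coloured by family) in each of the 8 libraries (columns), as log2(CPM + 1). MMP1, MMP3 and ADAMTS1 are bright in the 4 parental libraries and dark in the 4 ρ0 libraries, and the TIMP rows are brighter in ρ0 than in parental libraries.

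A gene enters the members through the libraries where it is high, so a count over all members holds genes that had to differ. Parental libraries alone made members of MMP3, MMP10, MMP13, MMP16, ADAM21, ADAM23, ADAMTS3, ADAMTS5 and ADAMTS18. For MMP7, MMP17, MMP28, ADAMTS8 and TIMP4 it was ρ0 libraries alone. The direction of their difference between the lines was thus favoured by the rule. Among the 28 members with 10 counts in every library, 4 were called higher and 11 lower after ADI in parental cells, where 12.9% and 18.1% of all genes with these counts were. In ρ0 cells 3 were higher and 3 lower, against 3.99% and 6.58%. Between the lines 8 were higher and 7 lower in control medium, against 10.6% and 12.5%, and 12 were higher and 5 lower after ADI, against 16% and 13.8%. The median log2 fold change of the 46 members was -0.38 for ADI in parental cells and -0.06 for ADI in ρ0 cells, against -0.07 and -0.02 over all genes. It was -0.26 between the lines in control medium and 0.62 after ADI, with -0.01 over all genes in each. Without ρ0 control replicate 1, 14 rather than 8 members were called for ADI in ρ0 cells, with 8 higher and 6 lower, and 15% rather than 12.4% of all genes were.

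**Figure D2:**
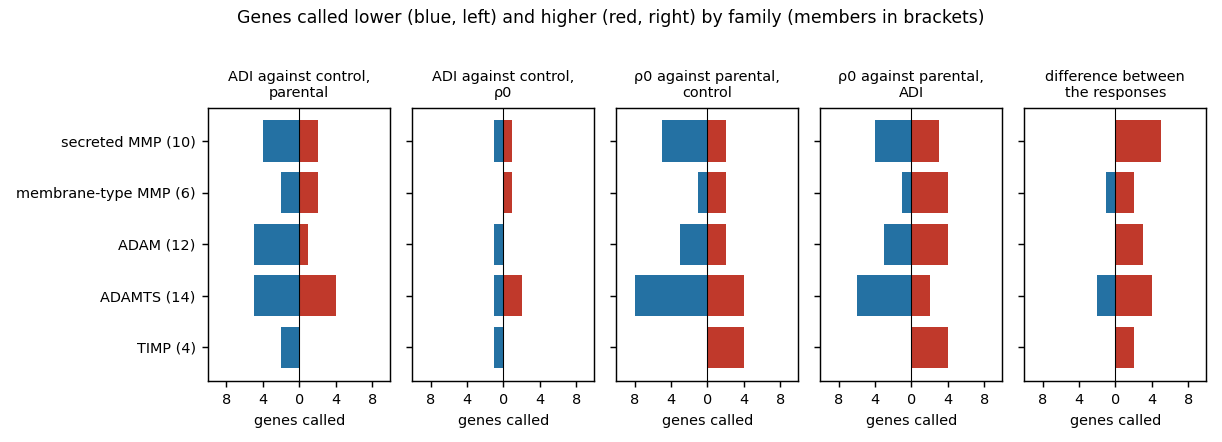
Number of members of each family called lower (blue, to the left) and higher (red, to the right) in each of the 5 tests, with the size of the family in brackets. In the comparisons of the lines all 4 TIMPs are red, and 8 ADAMTSs in control medium and 6 after ADI are blue. Of all tested genes, 13.6% were higher and 17.3% lower in ρ0 cells in control medium, and 18.7% and 16.8% after ADI. TIMP4 was a member only through ρ0 libraries, and ADAMTS3, ADAMTS5 and ADAMTS18 only through parental ones.

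Of the secreted MMPs, MMP1, the interstitial collagenase that opens fibrillar collagen, dominated the parental cells and was far lower in ρ0 cells. Its counts were 96873 and 82838 in parental control, 119556 and 138001 in parental ADI, 22 and 28 in ρ0 control, and 385 and 335 in ρ0 ADI. It took 0.313% and 0.311% of all counted reads in parental control and 0.458% and 0.470% in parental ADI. All 4 parental libraries lay far above all 4 ρ0 libraries, and within each line both ADI libraries lay above both controls. The log2 difference of ρ0 from parental cells was -11.75 (SE 0.14, edgeR adjusted p = 3.9e-08) in control medium and -8.48 (SE 0.12, adjusted p = 1.1e-07) after ADI. ADI raised MMP1 in ρ0 cells, from 0.763 and 0.900 CPM to 13.0 and 13.9 CPM (log2 fold change 4.0, SE 0.12, adjusted p = 1.6e-05). In parental cells the rise, from 2904 and 2877 CPM to 4734 and 4892 CPM, was 0.74 (SE 0.08, adjusted p = 0.00018) and did not reach the fold threshold. The lowest parental level of MMP1 was thus still far above the highest ρ0 level after its rise.

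MMP3 and MMP10, the stromelysins, which cut non-collagen matrix proteins and can activate other MMPs, were likewise low in ρ0 cells. MMP3 had 610 and 517 counts in parental control, 8330 and 9730 in parental ADI, 0 and 0 in ρ0 control, and 1 and 1 in ρ0 ADI. ADI raised it in parental cells by 4.22 on the log2 scale (SE 0.09, adjusted p = 4.7e-06), from 18.3 and 18.0 CPM to 330 and 345 CPM. Against a floor of 3 counts per library, MMP3 was at least 181-fold lower in ρ0 control than in parental control. After ADI the ratio of parental to ρ0 counts, corrected for library size, was 9075 (95% exact counting interval 2512 to 74944). MMP10 had 68, 61, 79 and 104 counts in the parental libraries and 1, 1, 2 and 0 in the ρ0 libraries, a ratio of 62.2 (16.9 to 519) in control medium and 92.0 (25.1 to 765) after ADI. The intervals and floors cover counting error only. With the few ρ0 counts, a response of MMP3 or MMP10 to ADI in ρ0 cells was not measurable at this depth.

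MMP9 and MMP13 were high only in the parental control group among the 4 groups. MMP9, the gelatinase that degrades denatured and basement membrane collagen, had 723 and 679 counts there, against 15 and 11 in parental ADI, 24 and 3 in ρ0 control, and 20 and 15 in ρ0 ADI. It fell by 5.52 on the log2 scale after ADI in parental cells (SE 0.53, adjusted p = 8.1e-05) and differed by -5.63 between ρ0 and parental control (SE 0.52, adjusted p = 7.5e-05). The second value was -7.81 without ρ0 control replicate 1 and -4.70 without replicate 2. MMP13, another collagenase, had 43 and 37 counts in parental control, 5 and 4 in parental ADI, 3 and 1 in ρ0 control, and 5 and 3 in ρ0 ADI, and its ratio of parental to ρ0 counts in control medium was 19.3 (7.25 to 72.5). The fitted log2 difference of MMP13 between the lines in control medium was -4.18, or -5.14 without ρ0 control replicate 1 and -3.52 without replicate 2. MMP13 was a member only through the 2 parental control libraries, so a fall from them was favoured by the rule, and its fitted change of -2.90 after ADI in parental cells is a description.

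MMP19 and MMP11 fell after ADI in parental cells and differed little between the lines in control medium. MMP19, a broadly expressed MMP, was at 11.5 and 12.7 CPM in parental control, 2.97 and 4.11 in parental ADI, 15.4 and 11.3 in ρ0 control, and 11.4 and 11.1 in ρ0 ADI. It fell by 1.77 on the log2 scale in parental cells (SE 0.21, adjusted p = 0.00024), and both parental ADI libraries lay below all others. MMP11, or stromelysin-3, which furin activates inside the cell, had 123 and 117 counts in parental control, 18 and 9 in parental ADI, 113 and 89 in ρ0 control, and 55 and 44 in ρ0 ADI. It fell by 2.92 in parental cells (SE 0.34, adjusted p = 0.00021), or -3.59 without parental ADI replicate 1, and its change in ρ0 cells was -0.88 (SE 0.29, adjusted p = 0.045, below the fold threshold). After ADI both were higher in ρ0 than in parental cells, MMP19 by 1.66 (adjusted p = 0.00032) and MMP11 by 1.85 (adjusted p = 0.0028), the latter by 2.52 without parental ADI replicate 1. MMP11 shares 218 exonic bases with CHCHD10 on the opposite strand. CHCHD10 had 638 and 613 counts in parental control, 315 and 277 in parental ADI, 228 and 306 in ρ0 control, and 172 and 120 in ρ0 ADI. Without known strand, reads in the shared bases cannot be assigned.

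The other secreted MMPs were sparse. MMP28, or epilysin, had 5 and 7 counts in parental control, 0 and 2 in parental ADI, 76 and 21 in ρ0 control, and 30 and 25 in ρ0 ADI, and was higher in ρ0 cells by 3.06 on the log2 scale in control medium (SE 0.76, adjusted p = 0.0092). That value was 1.78 without ρ0 control replicate 1, 3.79 without replicate 2, and 2.73 and not called without parental control replicate 1. After ADI the ratio of its ρ0 to parental counts was 27.4 (7.22 to 232). MMP7, or matrilysin, a small MMP mostly of epithelial cells, had 10 and 20 counts in ρ0 control and at most 5 in any other library, with a ratio of 31.1 (5.17 to 1269) between the lines in control medium. After ADI 5 and 1 counts were left in ρ0 cells. MMP7 was a member only through the 2 ρ0 control libraries, so its higher level there was favoured by the rule, and its call for ADI in ρ0 cells was lost without any library but ρ0 control replicate 1. MMP21, known for its part in left-right patterning of the embryo, had 3 to 18 counts in all and was called higher after ADI in parental cells, with 14 and 18 counts against 6 and 8, a call lost without any of the 4 parental libraries. MMP21 reached 10 counts only in parental ADI and in ρ0 ADI replicate 1, so its higher level in parental ADI was favoured by the rule.

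MMP7, MMP10, MMP1, MMP3 and MMP13 lie in this order in a row of MMP genes on chromosome 11, by RefSeq annotation of GRCh38.p14. MMP10, MMP1 and MMP3 are direct neighbours, with MMP20, MMP27 and MMP8 between MMP7 and MMP10 and MMP12 between MMP3 and MMP13. In control medium, MMP10, MMP1, MMP3 and MMP13 were lower in ρ0 cells, and MMP7, at the end of the row, was higher. Of these only MMP1 reached 10 counts in both lines, so the directions of the others were favoured by the rule. The 4 genes in between that were not members had at most 4 counts in any library. WTAPP1, a transcribed pseudogene on the opposite strand that contains MMP10 and shares 150 exonic bases with MMP1 and 32 with MMP3, had 44, 31, 21 and 51 counts in the parental libraries and 0 in all 4 ρ0 libraries. Whether counting used strand is not given in the sources used here, so reads in the shared bases cannot be assigned.

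**Figure D3:**
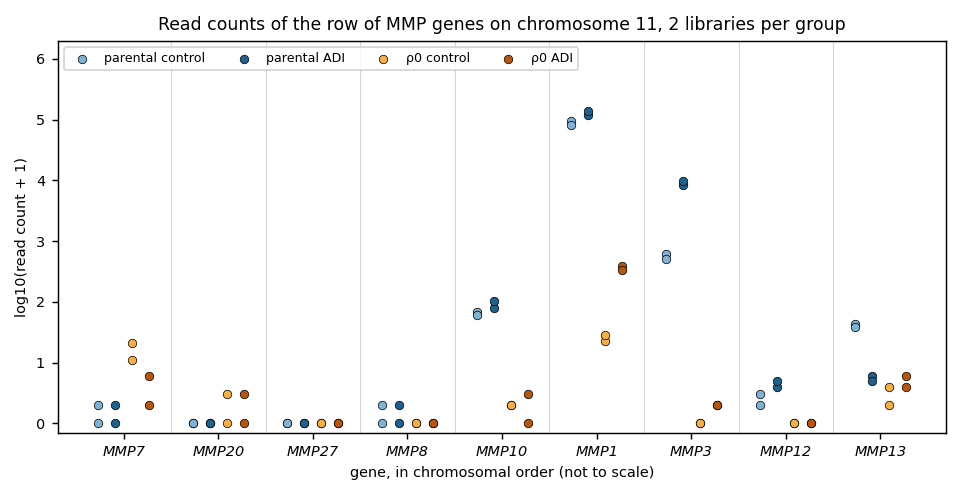
Read counts of the 9 MMP genes in the row on chromosome 11, in their chromosomal order (horizontal axis, not to scale), as log10(count + 1), with 1 point per library coloured by group. MMP10, MMP1, MMP3 and MMP12 have all parental points above all ρ0 points, whereas MMP7 has its highest points in ρ0 control.

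Promoter sequences, from 250 bases before to 50 bases after the start, were at hand in RefSeq for 27 of the 46 members, and those of MMP10 and MMP7 are shown because the genes lie in the same row and differed between the lines in opposite directions. Letters were searched on both strands for AP-1 (TGANTCA), PEA3 (AGGAAG) and the TATA box (spelled TATAAA), which do not overlap in the sequences shown. AP-1 letters were in 7.71% of all 35097 promoters and in 3 of the 27 (ADAMTS12, MMP10 and MMP7), and TATA letters were in 11.5% and in 4 (ADAM21, MMP10, MMP21 and MMP7). PEA3 letters were in 33.7% of all and in 8 of the 27 (ADAM10, ADAM12, ADAM17, ADAMTS12, ADAMTS13, MMP7, TIMP1 and TIMP4). The capitals mark AP-1 and then TATA letters.
MMP10, chr11:102780579-102780878, minus strand: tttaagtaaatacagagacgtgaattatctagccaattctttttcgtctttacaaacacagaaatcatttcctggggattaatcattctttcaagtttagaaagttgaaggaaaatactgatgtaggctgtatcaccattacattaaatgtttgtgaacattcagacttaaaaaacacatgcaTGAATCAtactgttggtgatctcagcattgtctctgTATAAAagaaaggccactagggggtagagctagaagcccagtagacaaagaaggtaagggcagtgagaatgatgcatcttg
MMP7, chr11:102530698-102530997, minus strand: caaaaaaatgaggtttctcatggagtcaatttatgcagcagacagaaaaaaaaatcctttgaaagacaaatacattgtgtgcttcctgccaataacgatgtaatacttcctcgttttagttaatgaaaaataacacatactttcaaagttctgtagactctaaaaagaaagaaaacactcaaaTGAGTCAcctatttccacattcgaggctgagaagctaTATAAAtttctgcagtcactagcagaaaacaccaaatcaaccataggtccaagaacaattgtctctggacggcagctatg
The AP-1 letters began at position -67 in both, and the TATA letters at -31 in MMP10 and -30 in MMP7. The AP-1 and TATA letters of these 2 promoters were at nearly the same distances. PEA3 letters, left unmarked, were in the window of MMP7 and not in that of MMP10. MMP10 was lower and MMP7 higher in ρ0 than in parental control. The former was a member only through parental libraries and the latter only through ρ0 control, so both directions were favoured by the rule. Whether any of these letters has a part in the difference between the lines was not tested.

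Of the membrane-type MMPs, MMP14 (MT1-MMP), a collagenase of the cell surface that activates MMP2, was the most abundant per length in all 4 groups, at 110, 16.8, 119 and 99.9 CPM per kb of exon in parental control, parental ADI, ρ0 control and ρ0 ADI. Its CPM were 498 and 482 in parental control, 76.0 and 74.0 in parental ADI, 726 and 333 in ρ0 control, and 452 and 440 in ρ0 ADI. Both parental ADI libraries lay below all others, and the 2 ρ0 control libraries lay on either side of the parental control and ρ0 ADI values. MMP14 fell by 2.71 on the log2 scale after ADI in parental cells (SE 0.32, adjusted p = 0.00022). In ρ0 cells the change was -0.25 (SE 0.30, adjusted p = 0.54), and in control medium the lines differed by 0.11 (SE 0.30, adjusted p = 0.76), both within the spread of the ρ0 controls. After ADI the ρ0 level was higher by 2.57 (SE 0.32, adjusted p = 0.00026). MMP2 itself, the best known target of MMP14, was no member, with at most 8 counts in any library.

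MMP15 (MT2-MMP) followed the same course at a lower level. It was at 19.8 and 21.5 CPM in parental control, 2.02 and 2.20 in parental ADI, 14.0 and 19.2 in ρ0 control, and 9.70 and 7.66 in ρ0 ADI. It fell by 3.29 in parental cells (SE 0.21, adjusted p = 1.8e-05) and its change in ρ0 cells was -0.93 (SE 0.19, adjusted p = 0.0066, below the fold threshold), and after ADI it was higher in ρ0 cells by 2.04 (SE 0.22, adjusted p = 0.00012).

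MMP17, MMP24 and MMP16 differed between the lines in both media. MMP17 (MT4-MMP), which is held at the membrane by a lipid anchor, had 0 and 0 counts in parental control, 2 and 2 in parental ADI, 41 and 38 in ρ0 control, and 178 and 129 in ρ0 ADI. It was at least 13.6-fold higher in ρ0 than in parental control, and rose by 2.10 on the log2 scale after ADI in ρ0 cells (SE 0.21, adjusted p = 0.00065). Its call after ADI in parental cells rested on 4 counts and was lost when any of the 4 parental libraries was left out. MMP24 (MT5-MMP) was at 2.31 and 2.29 CPM in parental control, 4.40 and 4.47 in parental ADI, 9.33 and 7.94 in ρ0 control, and 9.02 and 8.82 in ρ0 ADI, all 4 ρ0 values above all 4 parental values. It was higher in ρ0 cells by 1.91 in control medium (SE 0.15, adjusted p = 3.5e-05) and by 1.01 after ADI (SE 0.14, adjusted p = 0.00055), the latter 1.0 and not called with libraries scaled by total counts. Its antisense neighbour MMP24-AS1 was at 36.5 and 38.6 CPM in parental control and at 86.1 and 82.0 in ρ0 control, and without known strand the reads of the pair cannot be told apart. MMP16 (MT3-MMP) had 52, 35, 89 and 90 counts in the parental libraries and 6, 1, 1 and 3 in the ρ0 libraries, with a ratio of 45.0 (17.3 to 167) after ADI, and changed by 1.27 after ADI in parental cells (SE 0.35, adjusted p = 0.014), a call lost, at 1.10 to 1.46, without any of the 4 parental libraries. In control medium the log2 difference of MMP16 between the lines was -3.52, or -5.26 without ρ0 control replicate 1 and -2.67 without replicate 2. MMP25, the other lipid-anchored member, was called in none of the 5 tests, at 1.01 to 2.06 CPM throughout.

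ADAMs were expressed at a similar summed level in both parental groups, with a sum of 138 to 145 CPM per kb in the 4 parental libraries, 229 and 152 in ρ0 control, and 241 and 237 in ρ0 ADI. ADAM9, a widely expressed sheddase, led it per length in 3 of the 4 groups, at 51.4 CPM per kb in parental control, 82.7 in ρ0 control and 92.9 in ρ0 ADI, and in parental ADI it came after ADAM15, at 53.5 against 63.8. ADAM9 had 375 and 336 CPM in parental control, 366 and 373 in parental ADI, 654 and 489 in ρ0 control, and 643 and 642 in ρ0 ADI, and its excess in ρ0 cells of 0.68 (SE 0.14, adjusted p = 0.0034) and 0.80 (SE 0.14, adjusted p = 0.0014) on the log2 scale stayed below the fold threshold. ADAM15, which carries an integrin-binding motif, rose after ADI in parental cells from 199 and 210 CPM to 426 and 413 CPM, by 1.04 (SE 0.13, adjusted p = 0.0003). That rise was 0.92 with upper-quartile scaling and 0.88 with total counts, below the threshold, and in ρ0 cells ADAM15 went from 203 and 153 CPM to 338 and 323 CPM, a change of 0.89 (SE 0.13, adjusted p = 0.0017).

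The 2 main sheddases of the cell surface, ADAM10 and ADAM17, behaved differently. ADAM10, which sheds Notch and cadherins, was at 156 and 138 CPM in parental control, 92.2 and 92.6 in parental ADI, 421 and 290 in ρ0 control, and 324 and 327 in ρ0 ADI, with all ρ0 above all parental values. It was higher in ρ0 cells by 1.27 in control medium (SE 0.16, adjusted p = 0.00038), or 0.98 without ρ0 control replicate 1, and by 1.82 after ADI (SE 0.17, adjusted p = 6.1e-05). ADAM17, which sheds TNF and ligands of the EGF receptor, was called in none of the 4 pairwise comparisons, at 109 and 99.9 CPM in parental control, 90.0 and 84.6 in parental ADI, 94.4 and 58.2 in ρ0 control, and 139 and 136 in ρ0 ADI. It shares 1323 exonic bases with IAH1 on the opposite strand, which had 1363 counts in parental control replicate 1 against 3640 for ADAM17.

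ADAM8 and ADAM19 were lower in parental than in ρ0 cells after ADI. ADAM8, a sheddase first described in leukocytes, was at 145 and 141 CPM in parental control, 35.8 and 36.2 in parental ADI, 240 and 106 in ρ0 control, and 258 and 246 in ρ0 ADI. It fell by 1.99 on the log2 scale in parental cells (SE 0.32, adjusted p = 0.0011), and changed by 0.54 in ρ0 cells (SE 0.31, adjusted p = 0.20), within the gap between its control libraries. After ADI it was higher in ρ0 cells by 2.81 (SE 0.33, adjusted p = 0.00022). ADAM19, or meltrin beta, was at 55.5 and 55.8 CPM in parental control, 33 and 34.1 in parental ADI, 130 and 88.4 in ρ0 control, and 70.4 and 75.1 in ρ0 ADI. It was higher in ρ0 cells after ADI by 1.12 (SE 0.17, edgeR adjusted p = 0.00068). In control medium it was already higher by 0.97 (SE 0.16, adjusted p = 0.0014), below the fold threshold. Its changes after ADI, -0.73 in parental and -0.58 in ρ0 cells, were not called different (0.15, adjusted p = 0.64).

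ADAM22 and ADAM23, which lack the zinc run and act as receptors of LGI proteins in neurons, were lower after ADI in parental cells. ADAM22 was at 18.2 and 16.4 CPM in parental control, 1.82 and 1.81 in parental ADI, 11.2 and 8.71 in ρ0 control, and 3.01 and 2.40 in ρ0 ADI, and fell in both lines, by 3.25 in parental (SE 0.19, adjusted p = 1.4e-05) and by 1.87 in ρ0 cells (SE 0.19, adjusted p = 0.0004). ADAM23 had 42 and 27 counts in parental control, 6 and 2 in parental ADI, and 1, 0, 0 and 0 in the ρ0 libraries, a ratio of 66.5 (11.6 to 2666) in control medium. The fitted log2 difference of ADAM23 between the lines there was -5.72, or -7.99 without ρ0 control replicate 1 and -4.78 without replicate 2. Its change in parental cells was -2.84, or -3.88 without parental ADI replicate 1 and -2.19 without replicate 2. Only the 2 parental control libraries made ADAM23 a member, so its fall and its difference between the lines were favoured by the rule. ADAM12, a proteinase known from breast tumours, was at 8.99 and 7.09 CPM in parental control, 3.60 and 3.08 in parental ADI, 1.14 and 0.579 in ρ0 control, and 0.744 and 0.787 in ρ0 ADI, lower in ρ0 cells with a log2 difference of -3.23 in control medium (SE 0.30, adjusted p = 7.6e-05) and -2.12 after ADI (SE 0.32, adjusted p = 0.00074). ADAM28, a sheddase first described in lymphocytes, had 22 and 13 counts in parental control, 0 and 0 in parental ADI, 158 and 51 in ρ0 control, and 34 and 24 in ρ0 ADI, and was at least 4.94-fold lower after ADI in parental cells. It was higher in ρ0 cells by 2.65 on the log2 scale in control medium (SE 0.62, adjusted p = 0.0092) and at least 9.52-fold higher after ADI. The value in control medium was 1.54 without ρ0 control replicate 1 and 3.33 without replicate 2, and 2.96 and 2.41 and not called without parental control replicate 1 and 2. ADAM21 had 0 to 24 counts, with most in parental control, and its reads may be split with the near copies ADAM21P1 and ADAM20, which had at most 7. ADAM11, at 0.839 to 1.54 CPM, was called in none of the 5 tests.

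In the ADAMTS family the leading gene per length differed between the lines, while ADAMTS12 and ADAMTS16 were among the first 4 in every group. ADAMTS1, a proteoglycan-cleaving enzyme, led it per length in parental cells, at 18.5 and 84.5 CPM per kb in control and ADI, and ADAMTS15, another one, led it in ρ0 cells, at 42.5 and 21.0 CPM per kb. The sum over the family was 56.5 and 54.5 CPM per kb in parental control and 67.0 and 69.4 in ρ0 control, and 131 and 132 in parental ADI and 54.1 and 54.9 in ρ0 ADI. ADAMTS1 was at 132 and 129 CPM in parental control, 596 and 597 in parental ADI, 0.659 and 4.02 in ρ0 control, and 0.845 and 0.828 in ρ0 ADI. It rose by 2.19 on the log2 scale after ADI in parental cells (SE 0.41, adjusted p = 0.0023). The log2 difference of ρ0 from parental cells was -5.78 in control medium (SE 0.53, adjusted p = 6.8e-05) and -9.47 after ADI (SE 0.63, adjusted p = 1.3e-05). The 2 ρ0 controls held 19 and 125 of its counts, and the difference in control medium was -5.02 without the first and -7.56 without the second.

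ADAMTS15 was at 8.96 and 8.82 CPM in parental control, 1.54 and 2.20 in parental ADI, 225 and 257 in ρ0 control, and 120 and 119 in ρ0 ADI. The groups did not overlap, and it was higher in ρ0 cells by 4.76 in control medium (SE 0.14, adjusted p = 6.5e-07) and by 5.98 after ADI (SE 0.16, adjusted p = 4.2e-07). It fell after ADI by 2.24 in parental cells (SE 0.16, adjusted p = 2.5e-05) and by 1.01 in ρ0 cells (SE 0.12, adjusted p = 0.00067). The ρ0 value was close to the fold threshold and missed it at -0.99 with no filter on low counts, -0.90 without ρ0 control replicate 2 and -0.98 without ρ0 ADI replicate 2. Its chromosomal neighbour ADAMTS8, with 1, 0, 2 and 2 counts in the parental libraries, 12 and 24 in ρ0 control and 7 and 6 in ρ0 ADI, was higher in ρ0 control at a ratio of 37.3 (6.29 to 1515). Only the 2 ρ0 control libraries made ADAMTS8 a member, so its higher level there was favoured by the rule. ADAMTS5, the aggrecanase next to ADAMTS1 on chromosome 21, had 11 and 10 counts in parental control, 28 and 44 in parental ADI, and 0 in all 4 ρ0 libraries, and rose after ADI in parental cells by 1.97 (SE 0.36, adjusted p = 0.0045), in the direction of its neighbour. It was at least 3.38-fold lower in ρ0 cells in control medium and at least 11.8-fold lower after ADI.

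ADAMTS6, ADAMTS3 and ADAMTS18 were lower in ρ0 cells in both media. ADAMTS6, a protease known from heart development, was at 155 and 147 CPM in parental control, 228 and 238 in parental ADI, 15.1 and 15.4 in ρ0 control, and 29.9 and 29.8 in ρ0 ADI, lower in ρ0 cells, with log2 differences of -3.31 (SE 0.08, adjusted p = 3.9e-07) and -2.96 (SE 0.08, adjusted p = 4.1e-07). Its change after ADI stayed below the fold threshold, at 0.63 in parental and 0.97 in ρ0 cells, each with an adjusted p of 0.00019. ADAMTS3, which processes procollagen and VEGF-C, had 244 and 178 counts in parental control, 51 and 65 in parental ADI, and 3, 1, 2 and 1 in the ρ0 libraries, ratios of 102 (39.4 to 375) and 38.9 (13.0 to 191). The fitted log2 difference of ADAMTS3 between the lines in control medium was -6.57, or -7.53 without ρ0 control replicate 1 and -5.91 without replicate 2. ADAMTS18 had 227 and 183 counts in parental control, 22 and 40 in parental ADI, and 0 in all 4 ρ0 libraries, at least 65.6-fold lower in control medium and at least 10.1-fold lower after ADI.

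ADAMTS9 and ADAMTS17 rose after ADI in both lines, and ADAMTS16 was higher in ρ0 than in parental control. ADAMTS9, a versican-cleaving enzyme, was at 8.18 and 8.13 CPM in parental control, 20.6 and 21.5 in parental ADI, 48.4 and 30.3 in ρ0 control, and 83.4 and 82.1 in ρ0 ADI. It rose by 1.37 in parental (SE 0.21, adjusted p = 0.00079) and by 1.07 in ρ0 cells (SE 0.19, adjusted p = 0.0042), the latter 0.79 without ρ0 control replicate 2. ADAMTS17, linked to short stature, was at 6.42 and 5.45 CPM in parental control, 22.5 and 22.4 in parental ADI, 2.08 and 3.51 in ρ0 control, and 9.33 and 8.57 in ρ0 ADI, and rose by 1.91 in parental (SE 0.21, adjusted p = 0.00017) and by 1.67 in ρ0 cells (SE 0.23, adjusted p = 0.0014). Its log2 difference between the lines in control medium was -1.08, and -0.76 without ρ0 control replicate 1 and -0.96 without parental control replicate 1, where it was not called. ADAMTS16 was at 23.7 and 24.5 CPM in parental control, 46.7 and 46.1 in parental ADI, 72.2 and 70.0 in ρ0 control, and 78.0 and 84.5 in ρ0 ADI, and was higher in ρ0 than in parental control by 1.56 (SE 0.08, adjusted p = 6.4e-06).

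Of the remaining ADAMTSs, ADAMTS7 and ADAMTS12, which both cut the cartilage protein COMP, differed in their response. ADAMTS7 was at 12.7 and 16.2 CPM in parental control, 3.45 and 3.08 in parental ADI, 9.05 and 3.38 in ρ0 control, and 5.27 and 5.76 in ρ0 ADI, a change of -2.14 in parental cells (SE 0.41, adjusted p = 0.0025). Its call between the lines in control medium (-1.22, adjusted p = 0.027) was lost without either parental control library (-1.38 and -1.03), without ρ0 control replicate 2 (-0.61) and without either ρ0 ADI library (-1.16 and -1.17), and was -2.08 without ρ0 control replicate 1. ADAMTS12 was at 54.5 to 82.3 CPM in all libraries and passed the fold threshold in none of the 4 pairwise comparisons. ADAMTS13, which trims von Willebrand factor, had 49 and 51 counts in parental control and 14 to 33 elsewhere, and was called lower in parental ADI (-1.34) and in ρ0 control (-1.04). The first call was lost without any parental library, at -1.53 to -1.19, and the second without any library but ρ0 control replicate 1, at -1.17 to -0.89. ADAMTS14, a procollagen proteinase, had 117 and 21 counts in ρ0 control and 26 to 43 elsewhere, and was called in none of the 5 tests.

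All 4 TIMPs were higher in ρ0 than in parental cells in both media, and in each of them every ρ0 library lay above every parental library. Of all tested genes, 13.6% in control medium and 18.7% after ADI were called higher in ρ0 cells. The share of all genes without overlap between the lines is not given here. For TIMP4, a member only through the ρ0 libraries, the higher level there was favoured by the rule, whereas TIMP1, TIMP2 and TIMP3 had 10 counts in every library. Their summed level per length was 161 and 165 CPM per kb in parental control, 113 in each parental ADI library, 813 and 609 in ρ0 control, and 802 and 790 in ρ0 ADI. TIMP1, a secreted inhibitor of most MMPs, was at 91.2 and 99.1 CPM in parental control, 122 and 123 in parental ADI, 548 and 424 in ρ0 control, and 847 and 831 in ρ0 ADI. It was higher in ρ0 cells by 2.35 on the log2 scale in control medium (SE 0.13, adjusted p = 7.5e-06) and by 2.78 after ADI (SE 0.13, adjusted p = 3.2e-06). After ADI the change of TIMP1 was 0.36 (SE 0.12, adjusted p = 0.034) in parental and 0.79 (SE 0.12, adjusted p = 0.0023) in ρ0 cells, both below the fold threshold.

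TIMP2, which also bridges MMP14 and the precursor of MMP2, was at 421 and 403 CPM in parental control, 168 and 166 in parental ADI, 1270 and 1048 in ρ0 control, and 929 and 919 in ρ0 ADI. It fell by 1.30 after ADI in parental cells (SE 0.10, adjusted p = 3.9e-05) and was higher in ρ0 cells by 1.49 in control medium (SE 0.10, adjusted p = 2e-05) and by 2.47 after ADI (SE 0.11, adjusted p = 2.3e-06). TIMP3, the matrix-bound TIMP that also inhibits ADAM10, ADAM17 and aggrecanases, was at 122 and 133 CPM in parental control, 18.8 and 17.0 in parental ADI, 1047 and 666 in ρ0 control, and 387 and 395 in ρ0 ADI. The 4 groups did not overlap. TIMP3 fell by 2.84 after ADI in parental (SE 0.21, adjusted p = 2.8e-05) and by 1.13 in ρ0 cells (SE 0.19, adjusted p = 0.0031), the latter -0.77 and not called without ρ0 control replicate 1. It was higher in ρ0 cells by 2.75 in control medium (SE 0.20, adjusted p = 2.5e-05) and by 4.45 after ADI (SE 0.22, adjusted p = 3.9e-06). TIMP4 was at 0 counts in all 4 parental libraries and had 183 and 178 counts in ρ0 control and 141 and 88 in ρ0 ADI, at least 62.2-fold and at least 37.4-fold higher. SYN2, the gene on the opposite strand that contains TIMP4 and shares 170 exonic bases with it, had 0 or 1 count in each parental library, 25 and 7 in ρ0 control, and 2 and 5 in ρ0 ADI.

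**Figure D4:**
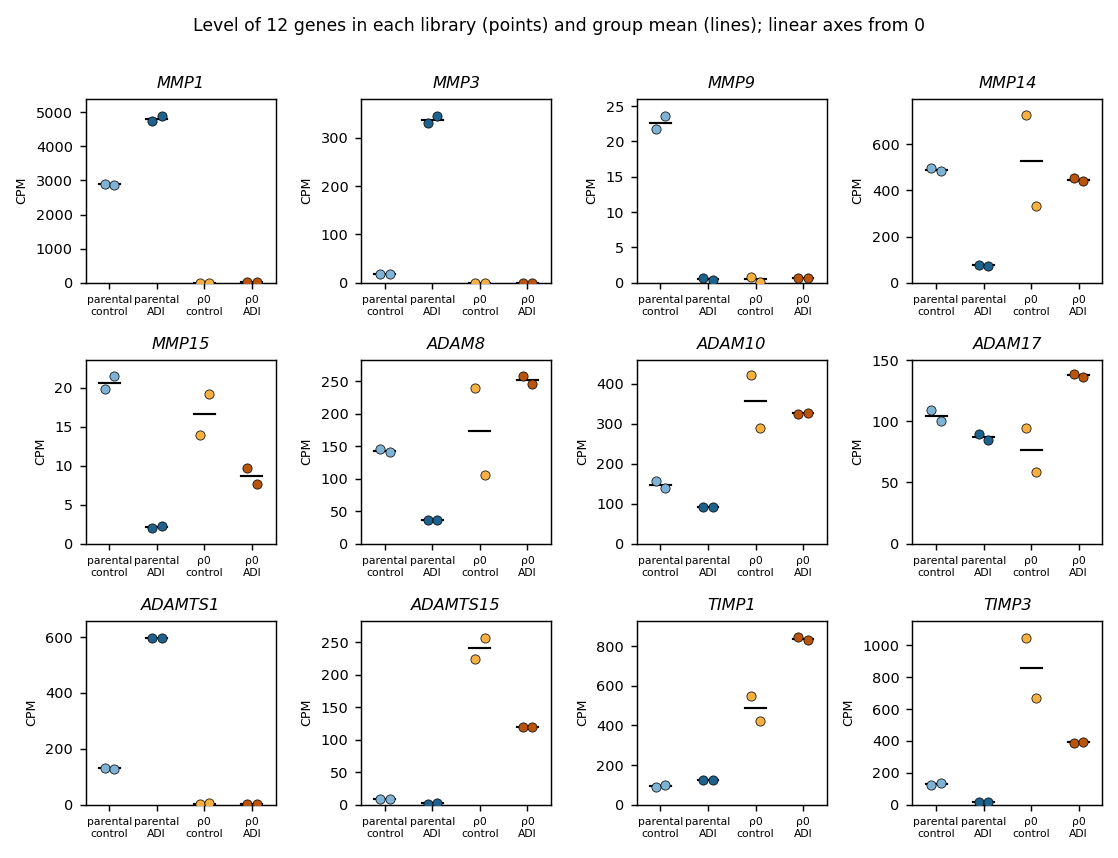
CPM of 12 members in each library (points, 2 per group) with the group mean (line), on linear axes from 0. MMP1, MMP3 and ADAMTS1 stand out in the parental groups, ADAM10, ADAMTS15, TIMP1 and TIMP3 in the ρ0 groups, and MMP14, MMP15 and ADAM8 have their lowest points in parental ADI.

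The families differed in how their summed level per length moved. The secreted MMPs summed to 1497 and 1485 CPM per kb in parental control and to 2568 and 2655 in parental ADI, nearly all of it MMP1, whose mean was 1467 and 2443. They summed to 6 and 4.09 in ρ0 control and to 10.4 and 10.6 in ρ0 ADI, where MMP19, at 2.85, and MMP1, at 6.82, led. The membrane-type MMPs summed to 117 and 114 in parental control, 19.1 and 18.7 in parental ADI, 169 and 81.4 in ρ0 control, and 107 and 104 in ρ0 ADI. In parental control the secreted MMPs were thus far above the TIMPs per length, and in all 4 ρ0 libraries the order was turned.

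ADI moved fewer members in ρ0 cells (4 higher and 4 lower) than in parental cells (9 and 18). It also moved fewer of all genes, 12.4% in ρ0 against 34.9% in parental cells. The part of the wide spread of the ρ0 controls in this was not tested. The test of the difference between the responses (the interaction, called at an adjusted p under 0.05 without a fold threshold) called 16 members higher and 3 lower in ρ0 cells. Of all genes, 21.6% were called higher and 18.8% lower, and the median difference was 0.52 over the members and 0.02 over all genes. Among the 28 members with 10 counts in every library, 13 were called higher and 3 lower, against 22.6% and 21.9% of all genes with these counts. The count over all members, 19 with all libraries, was 29 without ρ0 control replicate 1 and 28 without replicate 2, and 13 to 15 without any other library. The share of all genes called moved with it, from 40.4% to 65.9% and 59.5%, and to 22.5% to 25.4% without another library.

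In 9 of the 16 with a higher value, the parental fall was past the thresholds and the ρ0 change was not. These were MMP9 (difference 6.04, SE 0.89, adjusted p = 0.0024), MMP13 (4.0), ADAM8 (2.53, SE 0.45, adjusted p = 0.0047), MMP14 (2.46, SE 0.43, adjusted p = 0.0045), MMP15 (2.35, SE 0.28, adjusted p = 0.0011), MMP11 (2.04, SE 0.45, adjusted p = 0.011), ADAMTS7 (1.97, SE 0.57, adjusted p = 0.029), MMP19 (1.53, SE 0.29, adjusted p = 0.006) and TIMP2 (0.98, SE 0.14, adjusted p = 0.0024). Of all tested genes, 22.1% were called lower after ADI in parental and 8.19% in ρ0 cells. The share of all genes with the pattern of the 9 is not given here. Among the 9, MMP15 (-0.93), MMP11 (-0.88) and TIMP2 (-0.33) also fell in ρ0 cells at an edgeR adjusted p under 0.05, below the fold threshold. In ADAM22 (1.38, adjusted p = 0.0064), ADAMTS15 (1.22, adjusted p = 0.0033) and TIMP3 (1.70, adjusted p = 0.0033) both lines fell past the thresholds, the parental line by more. Without ρ0 control replicate 1 the difference was 8.23 for MMP9, 3.24 for ADAM8, 3.13 for MMP14 and 2.84 for ADAMTS7, and without replicate 2 it was 5.15 for MMP9. The value of MMP13 rests on 4 against 8 counts in ρ0 cells and on the parental controls that made it a member, and was 4.98 without ρ0 control replicate 1, 3.38 without replicate 2, and 3.73 and not called without ρ0 ADI replicate 1. For MMP11 it was 2.71 without parental ADI replicate 1. The call of ADAMTS7 was lost when any parental or ρ0 ADI library was left out.

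The response of MMP1 was larger in ρ0 cells by 3.27 (SE 0.15, adjusted p = 5.2e-05). ADAM17 changed by -0.26 in parental and 0.85 in ρ0 cells, a difference of 1.11 (SE 0.28, adjusted p = 0.017). ADAMTS6 (0.34, adjusted p = 0.034) and ADAMTS12 (0.49, adjusted p = 0.022) differed by less than 1 on the log2 scale. The calls of ADAM17 and ADAMTS6 were lost when any parental or ρ0 ADI library was left out, and that of ADAMTS12 when any of these but parental control replicate 2 was. The 3 members with a lower value in ρ0 cells were ADAMTS1 (-3.69, SE 0.81, adjusted p = 0.01), MMP24 (-0.90, SE 0.21, adjusted p = 0.013) and ADAMTS16 (-0.75, SE 0.11, adjusted p = 0.0026), whose changes in parental cells were 2.19, 0.94 and 0.94 (adjusted p = 0.0023, 0.0011 and 5.4e-05). The difference of ADAMTS1 was -4.45 without ρ0 control replicate 1, -1.88 without replicate 2, and -3.72 and not called without ρ0 ADI replicate 1. That of MMP24 was lost, at -0.93 to -0.88, when any parental or ρ0 ADI library but parental control replicate 1 was left out.

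**Figure D5:**
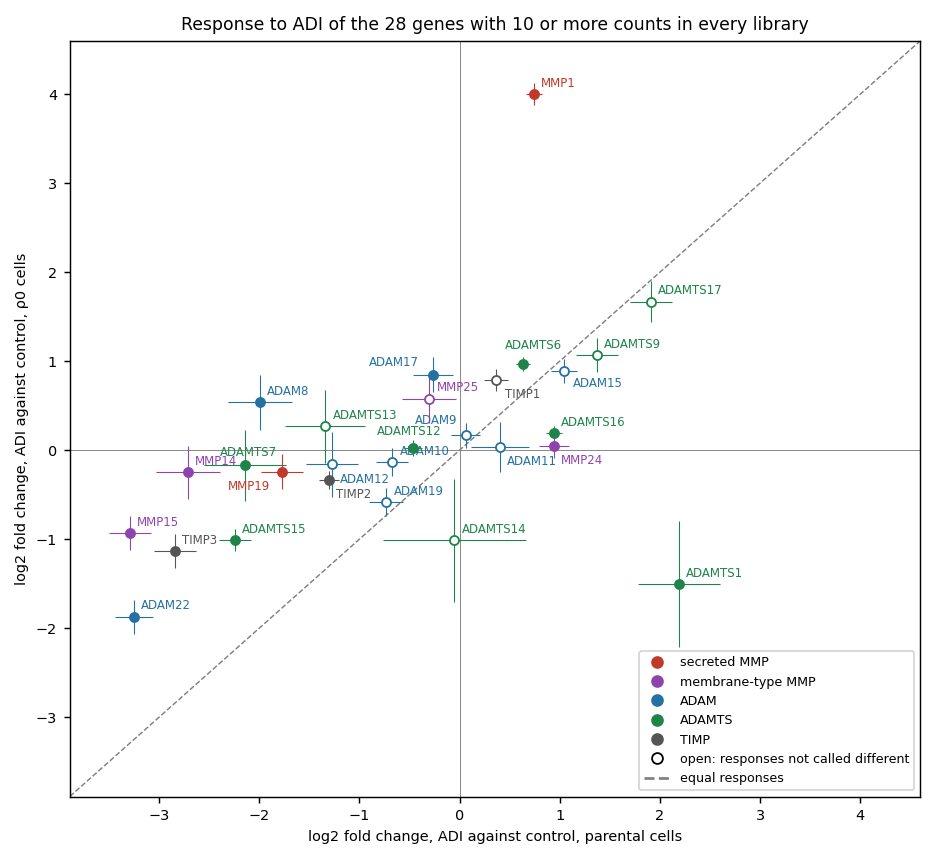
Log2 fold change after ADI in parental cells (horizontal axis) and in ρ0 cells (vertical axis) of the 28 members with at least 10 counts in every library, coloured by family, with bars of 1 SE and filled points where the 2 responses were called different. MMP14, MMP15, ADAM8, ADAM22, ADAMTS15 and TIMP3 lie far to the left and above the dashed line of equal responses, MMP1 lies at the top, and ADAMTS1 lies at the lower right.

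Genes that act on these proteinases or are cut by them were read from fixed lists. Of all tested genes, 12.7% were called higher and 22.1% lower after ADI in parental cells, and 4.22% and 8.19% in ρ0 cells. Between the lines in control medium 13.6% were higher and 17.3% lower in ρ0 cells. The counts from these short lists stand against these shares, and whether a list departs from them was not tested. Of 13 genes for activation and maturation, 4 were called lower after ADI in parental cells, namely RHBDF2 (-1.10, adjusted p = 0.0015), an iRhom that matures ADAM17, and the tetraspanins TSPAN10 (-1.86), TSPAN15 (-4.11, adjusted p = 2.9e-05) and TSPAN33 (-1.03), which escort ADAM10. The call of TSPAN33 was lost without any of 5 libraries, at -0.99 to -0.86. In ρ0 cells TSPAN10 alone of the 13 was called lower after ADI. The convertases PCSK5 and PCSK6, which remove prodomains, were lower in ρ0 control, with differences of -4.82 (adjusted p = 7.2e-06) and -3.66 (adjusted p = 4.8e-05), and PCSK7 was higher by 1.39 (adjusted p = 1.4e-05). FURIN, at 121 to 197 CPM as group means, was called in none of the 5 tests.

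Of 9 other genes, namely inhibitors, the MMP inducer BSG and the clearance receptor LRP1, 8 were tested. LRP1, which takes up many of these proteinases and their inhibitors, was at 206 and 185 CPM in parental control, 7.05 and 6.38 in parental ADI, 135 and 25.7 in ρ0 control, and 70.4 and 64.4 in ρ0 ADI, a change of -4.86 in parental cells (adjusted p = 0.0007). RECK, a membrane-anchored MMP inhibitor, fell by 1.47 (adjusted p = 0.0067), from 25.6 to 9.22 CPM. In parental cells 4 of the 8 were called lower (LRP1, PAPLN, RECK and SPOCK3) and SPOCK2 higher, where 22.1% and 12.7% of all genes were. In ρ0 cells SPOCK1 alone was called, lower, where 8.19% of all genes were lower. The calls of SPOCK2 (1.2) and SPOCK3 (-3.44) were each lost without either of 2 parental libraries, SPOCK3 being at -2.80 without parental control replicate 1, -2.57 without parental ADI replicate 1 and -7.23 without replicate 2. That of SPOCK1 (-1.31) was lost without either parental control, either ρ0 ADI library or ρ0 control replicate 1. Between the lines in control medium PAPLN was higher and SPOCK1 and SPOCK3 lower in ρ0 cells.

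Of 22 membrane proteins shed by ADAM10 or ADAM17, 21 were tested. After ADI in parental cells 4 were called higher (IL6R, NOTCH1, NOTCH3 and PRNP) and TNFRSF1B lower, against 12.7% and 22.1% of all genes. The call of NOTCH3 (1.30) was lost without parental control replicate 1 or parental ADI replicate 2, and that of PRNP (1.21) without either parental control. In ρ0 cells IL6R and NOTCH1 were called higher, IL6R by 1.56, or 2.23 without ρ0 control replicate 2, and NOTCH1 by 2.02 (adjusted p = 4.2e-05) against 1.64 (adjusted p = 1.3e-05) in parental cells. In control medium 6 were higher in ρ0 cells (APLP2, CDH2, ICAM1, L1CAM, NOTCH3 and PRNP) and 2 lower (IL6R and PTPRF). Of all genes 13.6% were higher and 17.3% lower. ICAM1 was higher by 6.68 (edgeR adjusted p = 6.5e-07). Without ρ0 control replicate 1, L1CAM (1.13 with all libraries) was at 0.28, PRNP (1.36) at 0.71 and APLP2 (1.13) at 0.92, and none of them was called. The call of L1CAM was also lost without either parental control, its value was 1.72 without ρ0 control replicate 2, and that of IL6R was -3.79 without the latter and -3.19 with all. CDH2 (1.75) was not called without parental control replicate 2 (1.36) or ρ0 control replicate 2 (1.28), and was 2.34 without parental control replicate 1. Of 14 matrix substrates other than collagens, 8 were tested. FN1, SPARC, THBS2 and TNC were called lower and NID2 higher after ADI in parental cells, where 22.1% and 12.7% of all genes were. SPARC was called lower in ρ0 cells, where 8.19% of all genes were. The calls of FN1 (-1.76) and TNC (-1.16) were lost without any of the 4 parental libraries, though the values stayed at -1.82 to -1.70 and -1.23 to -1.09. The fit shares its estimate of the spread over all groups. In the 2 ρ0 controls FN1 was at 410 and 91.1 CPM and TNC at 30.3 and 11.9 CPM, and the part of that spread was not tested. SPARC, at -5.29 in parental cells, was at -5.90 without parental ADI replicate 1. Its call in ρ0 cells (-2.0) was lost without any library but ρ0 control replicate 2, where it was -2.65, and was -0.78 without ρ0 control replicate 1. TNC, tenascin-C, was lower in ρ0 control, with a difference of -4.49 (adjusted p = 5.3e-05), or -5.31 without ρ0 control replicate 1, and THBS1 was higher by 1.92 (adjusted p = 0.00023). Of the like-named genes outside the rule, 4 of 9 were tested, and ADAMTSL4, a matrix protein without a proteinase domain, fell after ADI, with changes of -3.57 in parental (adjusted p = 7.5e-06) and -1.43 in ρ0 cells (adjusted p = 0.00053).

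The 21 symbols below the minimum included 7 at 0 in all libraries. Just outside it were ADAM32, with 13 counts in ρ0 control replicate 2 and at most 9 elsewhere, ADAMTS20, with 15, 6, 3 and 4 counts in the ρ0 libraries and 0 in the parental ones, and ADAMTS19, with 9 and 5 counts in parental ADI. ADAM21, ADAMTS8, MMP7 and MMP21 were just inside it. The aggrecanase ADAMTS4 had at most 3 counts and the macrophage elastase MMP12 at most 4, so neither was measured at this depth.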

How the data were processed

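RNA-seq was analysed for 8 libraries, 2 in each of 4 groups assigned from the sample labels. The authors deposited 1 table of whole-number read counts by symbol that had not been normalized, and the submitters' processing notes name Bowtie, Partek and hg19 without a role, and the annotation, counting and strand settings are not given in the sources used here. Totals of 25259503 to 31022155 counts per library set the precision, and no column was left unused.

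Counts were tested in R 4.3.3 with edgeR 4.0.16 (filterByExpr, TMM, quasi-likelihood test, 1 mean per group, all 8 libraries in one fit, Benjamini-Hochberg adjustment over 15262 genes). The biological coefficient of variation was 12.4%, with 4 residual degrees of freedom per gene. SEs were taken as the size of a log2 change over the root of its F statistic. CPM per kb were obtained with the union of GENCODE v29 exons. A group with both libraries at 0 was given a bound against 3 counts per library, and groups with few counts a ratio with a 95% exact interval.

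Members, gene lists and tests were chosen with earlier results of these data known. Values in every library were given for members called in at least 1 test with a group mean of at least 1 CPM, at most 30, and for the 3 highest per family; other members are summarised, and those with fewer counts that are named were added after their values were seen. Alternatives were DESeq2 1.42.0, limma-voom (limma 3.58.1), other scalings and filters, other thresholds, the replicate number as a block and leaving out each library. Scripts were tested on simulated counts.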

Additional observations from a re-analysis of the deposited data

Results flagged for a closer look

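The response to ADI differed between the lines, by the interaction test of edgeR at an adjusted p under 0.05, in 19 members, which are listed here as the ρ0 minus the parental log2 fold change. Among secreted MMPs the difference was 3.27 for MMP1, 1.53 for MMP19, 6.04 for MMP9, 2.04 for MMP11 and 4.0 for MMP13. Among membrane-type MMPs it was 2.46 for MMP14, 2.35 for MMP15 and -0.90 for MMP24. Among ADAMs it was 2.53 for ADAM8, 1.11 for ADAM17 and 1.38 for ADAM22. Among ADAMTSs it was -3.69 for ADAMTS1, 0.34 for ADAMTS6, 1.22 for ADAMTS15, 0.49 for ADAMTS12, -0.75 for ADAMTS16 and 1.97 for ADAMTS7, and among TIMPs 0.98 for TIMP2 and 1.70 for TIMP3. The spread of the 2 ρ0 control libraries, and the low counts of MMP9 and MMP13 outside parental control, move with these values and their part was not tested. MMP13 was a member only through the 2 parental control libraries, so its value was favoured by the rule.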

How the results depend on the processing

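No called value of a member changed direction under the alternatives run, and 89 of the 116 kept their call under every one that gave a value, while 27 fell below a threshold under at least 1. With at least 10 counts required in every library, 28 members were left to test. For ADI in parental cells 15 rather than 27 were called, with 30.9% rather than 34.9% of all genes. Between the lines in control medium it was 15 rather than 31, with 23.1% rather than 30.9% of all genes. Between the lines after ADI it was 17 rather than 31, with 29.6% rather than 35.5%. Without a fold threshold 16 rather than 8 members were called for ADI in ρ0 cells, where 2937 of the 15262 genes were higher and 3371 lower. At an adjusted p under 0.01, 12 rather than 19 members were called for the difference between the responses. The share of all genes at that threshold is not given here. Leaving out each library gave 22 to 29 called members for ADI in parental cells, 6 to 14 for ADI in ρ0 cells, 26 to 31 between the lines in control medium, 28 to 31 after ADI and 13 to 29 for the difference between the responses. The highest counts in ρ0 cells and for the difference, 14 and 29, came without ρ0 control replicate 1, where 15% and 65.9% of all genes were called, against 12.4% and 40.4% with all libraries, and the cause was not tested. A group left with 1 library was assumed to vary like the others.

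Scaling by upper quartile or by total counts moved the median of all genes for ADI in parental cells from -0.07 to -0.19 and -0.233, against which the members' changes there should be read. With the replicate number as a block, 27, 8, 31, 30 and 18 members were called in the 5 tests, against 27, 8, 31, 31 and 19 without it. The shares of all genes called were 34.7%, 12%, 30.7%, 35.2% and 37.6%, against 34.9%, 12.4%, 30.9%, 35.5% and 40.4%. The replicate numbers do not mark a shared culture or batch in the labels, and deviations of same-numbered libraries correlated at -0.124 to 0.0726. The block ended the call of ADAMTS6 for the difference between the responses. Depth limits the members with few counts in a group, whose ratios have wide counting intervals.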
